A study of Danio rerio with 10 samples.

Results

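Dorsal and ventral sides of the mesoderm were compared in zebrafish (*Danio rerio*) embryos by setting cells of the cluster named Notochord against cells of the cluster named Ventral Margin, as named per cell by the study. There were 649 Notochord cells and 1027 Ventral Margin cells, 1676 of the 8226 cells of the series. The cells came from wild-type AB/TL embryos, which were deyolked, dissociated and pooled per library, and they were profiled by Drop-seq, which barcodes single cells in droplets. All groups shared the same treatment: 20 mM 4sUTP, a uridine analog, was injected at the 1-cell stage, and iodoacetamide (IAA, 10 mM) converted the incorporated analog on the beads, so that labeled RNA is zygotic, while unlabeled RNA holds the maternal copies and zygotic copies whose label was missed. There were 5 IAA libraries, 1 from dome (replicate B) and a pair (A and B) each from 30% and 50% epiboly, and each held both cell types. Per the methods of the study, epiboly embryos were dissected from the yolk with forceps in the first replicate and deyolked by shaking, as at dome, in the second, and the study saw cells separate by this method; both types of a library shared it. UMI counts were summed per library and cell type, which gave 10 sums, and the types were compared within libraries.

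The dorsal organizer of the fish gastrula gives rise to the notochord and the prechordal plate. It secretes chordin, noggin and other antagonists that bind BMP ligands and keep BMP signaling low on the dorsal side. BMP, Wnt and Nodal signals on the ventral and lateral margin induce homeobox and T-box factors of posterior and ventral mesoderm, and the ventral factors in turn repress organizer genes.

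Dome gave 160 Notochord and 59 Ventral Margin cells. At 30% epiboly there were 235 and 331 cells in replicate A and 36 and 91 in replicate B, and at 50% epiboly 192 and 497 in replicate A and 26 and 49 in replicate B. The 10 sums held 5289347 UMIs of endogenous genes together, from 63521 for Notochord of 50% epiboly replicate B to 1445949 for Ventral Margin of 50% epiboly replicate A. The precision was therefore lowest in the B replicates of both epiboly stages. Median UMIs per cell were higher in Notochord in 3 of 5 libraries, with a mean difference of 60.7 ± 679 (SD, n = 5, two-sided exact sign-flip test, p = 0.9375). No cell barcode was shared between the libraries among these cells.

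The names were set beside marker lists. The lists hold genes that served to name the clusters, among them *noto*, *chrd*, *gsc* and *eve1*. Their values therefore describe the types and are no independent check of the names. Summed markers of the notochord and organizer gave 2209 CPM (UMI counts of a gene scaled to a common total of the sum) in Notochord and 1509 CPM in Ventral Margin at dome, and between 4699 and 6806 CPM against 882 to 1197 CPM in the epiboly libraries. The list sum thus separated the types only weakly at dome. Of it, *xbp1* gave 753 CPM in Notochord and 562 CPM in Ventral Margin, and *fgf8a* 66.8 and 142 CPM. *noto* measured 161 against 39.8 CPM at dome, and *chrd*, *nog1* and *admp* were also higher in Notochord there, as given below. Later notochord markers were near or at 0, with *shha* (Hedgehog ligand) between 0 and 31.5 CPM and *col2a1a* (collagen of the notochord sheath) at 0 UMIs in all 5 Notochord sums. Ventral margin markers summed to 937 to 3484 CPM in Notochord and 5261 to 15010 CPM in Ventral Margin. Markers of the prechordal plate, the other derivative of the organizer, summed higher in Notochord in 5 of 5 libraries, at 370 to 809 CPM against 29.1 to 195 CPM. Of this sum, *gsc* (goosecoid) gave 308 CPM at dome and 252 CPM in 50% B, and *otx2b* and *six3b* of the same list were at 0 in 4 of 5 Notochord sums. The part of prechordal plate cells in the results below was not tested. Endoderm, enveloping layer, germ cell, ectoderm and yolk syncytial layer lists overlapped between the types, and *sox17*, which marks endoderm, was at 0 in every sum.

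The clusters were drawn from total UMI counts of these same cells. Tests of total expression therefore describe how regularly a difference recurred over libraries, and they are no independent evidence that the types differ. The genes *noto*, *gsc*, *chrd*, *tbxta*, *eve1* and *sox3*, which were among those that served to name clusters, are given without a p-value, though counts over lists and the genes of the stage comparison include them. The labeled fraction took no part in the clustering, but a difference in it between the types is not independent of how cells were grouped. Zygotic RNA is part of total expression. The study found the zygotic fraction tied to pseudotime, an order of cells computed from total expression.

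Of 4341 genes tested for total expression, 120 were higher in Notochord (2.76%) and 163 were higher in Ventral Margin (3.75%; edgeR quasi-likelihood test with the library as a block, adjusted p below 0.05). The median change over all tested genes was -0.00 on the log2 scale. With library totals in place of TMM scaling, the split was 165 higher in Notochord and 109 higher in Ventral Margin, so the balance of directions depended on the scaling. The 5 values of a gene in Notochord did not overlap those in Ventral Margin for 25 genes higher in Notochord (0.576%) and 21 genes higher in Ventral Margin (0.484%).

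BMP antagonists and feedback genes split between the sides. *chrd* (chordin) measured 222, 462, 485, 591 and 173 CPM in the Notochord sums of dome B, 30% A, 30% B, 50% A and 50% B, and 17.7, 14.8, 6.99, 6.92 and 0 CPM in Ventral Margin. The lowest Notochord value was thus above the highest Ventral Margin value. *nog1* (noggin) measured 144, 309, 272, 394 and 535 CPM against 22.1, 5.67, 9.32, 4.84 and 0 CPM in the same order. The groups did not overlap, and the log2 difference was 5.51 ± 0.25 (SE, adjusted p = 3.69e-18). Of the 10 genes in the table from the list of BMP antagonists and feedback genes, 5 were tested, of which 2 were higher in Notochord (*chrd* and *nog1*) and 2 were higher in Ventral Margin. The latter were *bambia*, a pseudoreceptor induced by BMP, and *smad7*, an intracellular inhibitor of the pathway. *bambia* measured 34.1 to 83.1 CPM in Notochord and 270 to 824 CPM in Ventral Margin, a log2 difference of -3.25 ± 0.12 (adjusted p = 3.25e-20).

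BMP ligands split by side. *admp*, a BMP-like ligand made in the organizer, measured 141, 587, 367, 1090 and 425 CPM in Notochord and 13.3, 35.2, 2.33, 27.7 and 18.9 CPM in Ventral Margin. These groups did not overlap (log2 difference 4.81 ± 0.18, adjusted p = 3.32e-20). *bmp7a* went the other way, with 22.7, 59.4, 35.5, 67.0 and 15.7 CPM in Notochord and 88.5, 305, 238, 281 and 312 CPM in Ventral Margin. Its log2 difference was -2.35 ± 0.16 (adjusted p = 1.74e-13), and the groups again did not overlap. *bmp2b* (-2.98 ± 0.31) and *bmp4* (-1.80 ± 0.20) were also higher in Ventral Margin, so that 3 of the 4 tested ligands were ventral and 1 was dorsal. The remaining ligand, *gdf6a*, was at 0 in every Ventral Margin sum and at most 5.69 CPM in Notochord.

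The ventral homeobox genes, which BMP and Wnt signals induce on the ventral side, were all higher in Ventral Margin (4 of 4 tested). *ved* measured 41.2, 89.7, 101, 150 and 110 CPM in Notochord and 1588, 2626, 3496, 3066 and 5405 CPM in Ventral Margin. The groups lay far apart in each library (log2 difference -4.91 ± 0.11, adjusted p = 2.22e-26). *vox* measured 59.7 to 173 CPM in Notochord and 327 to 2277 CPM in Ventral Margin, and *vent* 8.53 to 47.2 CPM against 48.7 to 246 CPM. For *eve1*, a homeobox gene of the ventral margin, Ventral Margin held 345 to 1380 CPM and Notochord 5.69, 13.2, 11.8, 43.4 and 0 CPM. The 0 in Notochord of 50% epiboly replicate B came from 63521 UMIs, and set against the level that 3 counts would give there (47.2 CPM), *eve1* was at least 29.2-fold lower in Notochord of that library.

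Transcription factors of the axis were higher in Notochord. *noto*, which specifies notochord, measured 161, 653, 615, 846 and 1763 CPM in Notochord and 39.8, 88.5, 126, 50.5 and 180 CPM in Ventral Margin. Dome was the low Notochord sum and lay within the Ventral Margin range, while the 4 epiboly sums lay above it. *gsc*, a transcriptional repressor gene and here a marker of the prechordal plate, measured 308, 654, 621, 666 and 252 CPM against 48.7, 10.2, 2.33, 9.68 and 0 CPM. *foxd3* (3.14 ± 0.15) and *foxa3* (3.98 ± 0.34), both forkhead transcription factor genes, were higher in Notochord without overlap of the groups. Of the 13 genes in the table from the list of the axial program, 6 were tested and 5 were higher in Notochord; the sixth, the cofilin-like gene *cfl1l*, differed by -0.07 ± 0.07 (adjusted p = 0.687). The insulin gene *insb* was also among the 10 genes of lowest adjusted p, at 78.2 to 394 CPM in Notochord and 8.85 to 40.1 CPM in Ventral Margin.

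**Figure D1:**
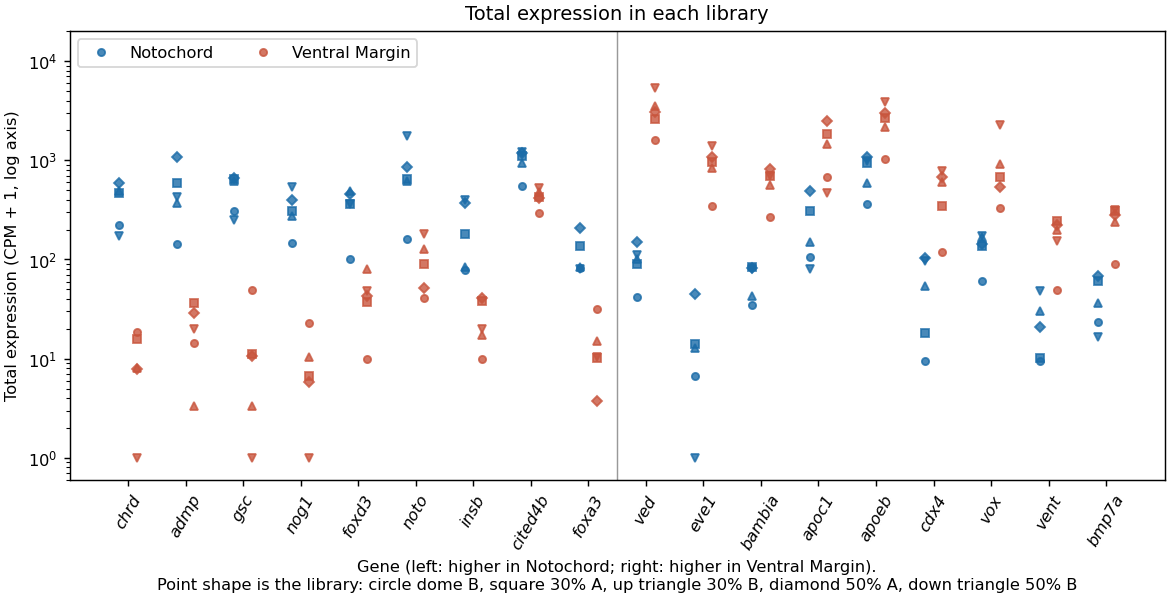
Total expression (CPM plus 1, log axis) of the 9 genes of lowest adjusted p in each direction, with 1 point per library for Notochord (blue) and Ventral Margin (red); point shapes mark libraries. The blue and red points of *chrd*, *admp*, *nog1* and *ved* do not overlap, whereas those of *noto*, *apoc1* and *apoeb* overlap across libraries although every library shows the same direction.

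Of 5 tested genes in the list of Wnt antagonists and targets, 3 were higher in Ventral Margin and none in Notochord. *axin2*, a direct target and inhibitor of the pathway, measured 0 to 15.8 CPM in Notochord and 53.1 to 68.1 CPM in Ventral Margin (-2.38 ± 0.30, adjusted p = 7.16e-07), and *sp5a*, a target gene for a zinc finger factor, 0 to 17.8 CPM against 37.3 to 63.5 CPM. *sp5l* differed less (-0.42 ± 0.12, adjusted p = 0.0265) and did not pass without dome replicate B, without 30% A, without 50% A or without 50% B. In cells drawn to the same pseudotime, described below, *sp5l* was at 0.38 (adjusted p = 0.117), and neither of the 2 genes of the list tested there passed (median 0.43). Of all 2233 genes tested there, 88 were higher in Notochord and 47 in Ventral Margin, so 2 genes are too few to judge the list. *axin2* and *sp5a* were not tested in these cells. *dkk1b*, a secreted Wnt antagonist of the organizer, measured 29.9 to 252 CPM in Notochord and 18 to 142 CPM in Ventral Margin, overlapping groups with a difference of 0.10 ± 0.29 (adjusted p = 0.923). Among ligands and receptors 4 genes were tested, of which the receptor *fzd7a* was higher in Notochord (1.35 ± 0.31, adjusted p = 0.00528) and the ligand *wnt11f2* in Ventral Margin (-1.04 ± 0.17, adjusted p = 3.84e-05). Neither *fzd7a* (adjusted p = 0.115) nor *wnt11f2* (adjusted p = 0.148) passed with DESeq2.

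Of 3 tested T-box genes, 2 were higher in Ventral Margin. *tbx16*, a T-box factor of paraxial mesoderm, measured 445, 1324, 675, 1408 and 756 CPM in Notochord and 1310, 2621, 1345, 2269 and 1465 CPM in Ventral Margin. It was lower in Notochord in 5 of 5 libraries, by 1.08 ± 0.09 on the log2 scale (log2 difference -1.08, adjusted p = 6.58e-11), while the groups overlapped. *tbxta* (brachyury), which is needed in both notochord and posterior mesoderm, measured 179, 790, 1261, 1579 and 1810 CPM against 934, 2121, 1823, 1791 and 2069 CPM. Both tested genes of the posterior list were ventral: *cdx4*, a caudal homeobox gene (-3.35 ± 0.16), and *cyp26a1*, which degrades retinoic acid (-1.32 ± 0.14). From the list of Notch and Hairy/E(spl) genes, 4 of 5 tested genes were higher in Ventral Margin (*hes6*, *her1*, *her7* and the ligand *dlc*) and none in Notochord. *her7* (-1.16 ± 0.23) was at -0.45 without 30% A (adjusted p = 0.303) and had an adjusted p of 0.144 with DESeq2. At the same pseudotime 0 of 3 tested genes of the list passed (edgeR), and *dlc* and *her1* were not tested there. Over all genes tested there, 88 of 2233 were higher in Notochord and 47 in Ventral Margin, so 3 genes are too few to judge the list.

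Nodal genes did not take 1 side, and the few FGF genes that passed were higher in Notochord. Of 10 tested Nodal pathway genes, 3 were higher in Notochord, among them the co-receptor *tdgf1* (0.66 ± 0.14, adjusted p = 0.00226) and the inhibitor *lft2* (2.01 ± 0.48, adjusted p = 0.00647), the first higher in 4 and the second in 3 of 5 libraries. *tdgf1* did not pass with DESeq2 (adjusted p = 0.115) but passed at the same pseudotime (0.92, adjusted p = 0.000711). *lft2* did not pass without 30% epiboly replicate B (1.89, adjusted p = 0.0502). The homeobox targets *mixl1* (-1.45 ± 0.17, adjusted p = 9.85e-08) and *sebox* (-1.02 ± 0.18, adjusted p = 0.000141) were higher in Ventral Margin, and *sebox* was at -0.11 at the same pseudotime (adjusted p = 0.89). The ligand *ndr2* measured 0 to 168 CPM in Notochord and 26.5 to 163 CPM in Ventral Margin (-0.03 ± 0.23, adjusted p = 0.975). Of 11 tested FGF genes, 2 were higher in Notochord, the ligand *fgf3* (1.01 ± 0.26, adjusted p = 0.0158) and the inhibitor *il17rd* (0.81 ± 0.22, adjusted p = 0.0214), and none in Ventral Margin. Without 50% epiboly replicate A, *fgf3* differed by 0.44 with an adjusted p of 0.307, and without 30% epiboly replicate B by 0.98 (adjusted p = 0.114). *il17rd* did not pass without dome B (0.72, adjusted p = 0.0789), without 30% B (0.70, adjusted p = 0.0961), with DESeq2 (adjusted p = 0.0834) or without the filter on low counts (adjusted p = 0.0574). At the same pseudotime, 3 of 5 tested genes of the FGF list were higher in Notochord and 0 in Ventral Margin (edgeR, list median 0.63), beside 88 and 47 of all 2233 genes tested there. *fgf3* was among the 3 FGF genes (1.04, adjusted p = 0.00202).

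Among genes outside the signaling lists, 2 apolipoprotein genes were strongly ventral. *apoc1* measured 105, 306, 148, 493 and 78.7 CPM in Notochord and 677, 1847, 1452, 2508 and 472 CPM in Ventral Margin (-2.65 ± 0.10, adjusted p = 4.06e-20). *apoeb* measured 365, 940, 592, 1082 and 992 CPM against 1035, 2678, 2189, 2974 and 3855 CPM (-1.67 ± 0.08, adjusted p = 1.62e-17). Each library showed the ventral direction for both genes. *xbp1*, a transcription factor of the secretory and unfolded protein response, measured 753, 1268, 1403, 1757 and 1968 CPM in Notochord and 562, 352, 333, 204 and 208 CPM in Ventral Margin (2.02 ± 0.19, adjusted p = 1.57e-09). Of the 13 tested genes of the secretory pathway list, 2 were higher in Notochord, *xbp1* itself and the chaperone *hspa5* (0.52 ± 0.16, adjusted p = 0.0366), and the median over the list was 0.11. The call of *hspa5* was lost without 30% A, 30% B or 50% A (0.36 to 0.54, adjusted p 0.101 to 0.292), with DESeq2 (adjusted p = 0.31), without the filter on low counts (adjusted p = 0.153) and at the same pseudotime (0.18, adjusted p = 0.792). Cell cycle genes mostly did not pass, with 2 of 19 tested higher in Notochord and 4 higher in Ventral Margin, the cyclin gene *ccnd1* among the latter (-0.85 ± 0.09, adjusted p = 1.46e-08). In the list of gastrulation movement and adhesion genes, 3 of 10 tested genes were higher in Ventral Margin, among them the chemokine *cxcl12a* (-1.35 ± 0.23, adjusted p = 0.000136), and none in Notochord. At the same pseudotime *cxcl12a* was at -1.24 (adjusted p = 0.0052), the other ventral calls, *apela* (0.14) and *cxcr4a* (-0.19), were lost, and *pcdh8* (1.13, adjusted p = 0.000671) and *snai1a* (0.87, adjusted p = 0.00349) were higher in Notochord. The coactivator gene *cited4b* measured 552 to 1212 CPM in Notochord and 296 to 529 CPM in Ventral Margin without overlap (1.20 ± 0.09, adjusted p = 1.23e-11).

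The labeled fraction addressed how much of the RNA in each type was zygotic. It is the sum of UMIs times the labeled fraction of each gene in each cell over the sum of UMIs, taken over pairs of gene and cell with 3 or more UMIs. It was 13.5% in Notochord and 21.6% in Ventral Margin of dome replicate B. At 30% epiboly it was 36.2% against 40.9% in replicate A and 30.0% against 34.8% in replicate B, and at 50% epiboly 49.6% against 50.9% in replicate A and 27.7% against 35.2% in replicate B. Notochord RNA was thus less labeled in each library, by 5.28 ± 2.66 percentage points on average (SD, n = 5, difference -5.28), with a two-sided exact sign-flip p of 0.0625, the smallest that 5 libraries allow. Over genes with 10 or more UMIs behind the fraction in both types of a library, weighted equally, the mean difference was smaller, at -2.40 percentage points. It was -3.86, -0.8, -2.95, -1.08 and -3.31 in dome B, 30% A, 30% B, 50% A and 50% B. In the smallest library, 50% epiboly replicate B, the 95% Wilson intervals spanned 27.2% to 28.2% in Notochord and 34.8% to 35.5% in Ventral Margin. They take each UMI as an independent draw. The error of the labeled fraction estimates and the spread between the 26 Notochord and 49 Ventral Margin cells are left out.

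Notochord cells also lay earlier in pseudotime, the order of cells in pseudo-min that the study computed from total expression. Their median was 281, 305, 308, 320 and 312 pseudo-min in the 5 libraries, against 303, 325, 324, 334 and 331 pseudo-min for Ventral Margin, a mean difference of -18.5 ± 2.90 (SD, n = 5, two-sided exact sign-flip test, p = 0.0625). When cells were compared within bins of 10 pseudo-min, the direction of the labeled fraction turned. Notochord RNA was then more labeled by 4.48 ± 3.05 percentage points, higher in 5 of 5 libraries (two-sided exact sign-flip test, p = 0.0625), with differences of 0.99, 3.93, 7.76, 2.25 and 7.46 percentage points in dome B, 30% A, 30% B, 50% A and 50% B. Only bins that held cells of both types entered. At dome, the 20 and 50 Notochord cells of the bins from 260 to 280 pseudo-min were thus left out. Some bins were small. The 3 bins of 50% B were at 21.2, -2.06 and 9.44 points, the first with 2 Notochord and 3 Ventral Margin cells. With bins that held 5 or more cells of both types, chosen after seeing the data, the difference was 4.13 ± 2.47. Pseudotime itself rests on total expression of the same cells, in which zygotic genes take part. The study also chose its start cells at dome by high expression of a module of mainly maternal genes. The part of pseudotime in the result was not tested apart from this.

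**Figure D2:**
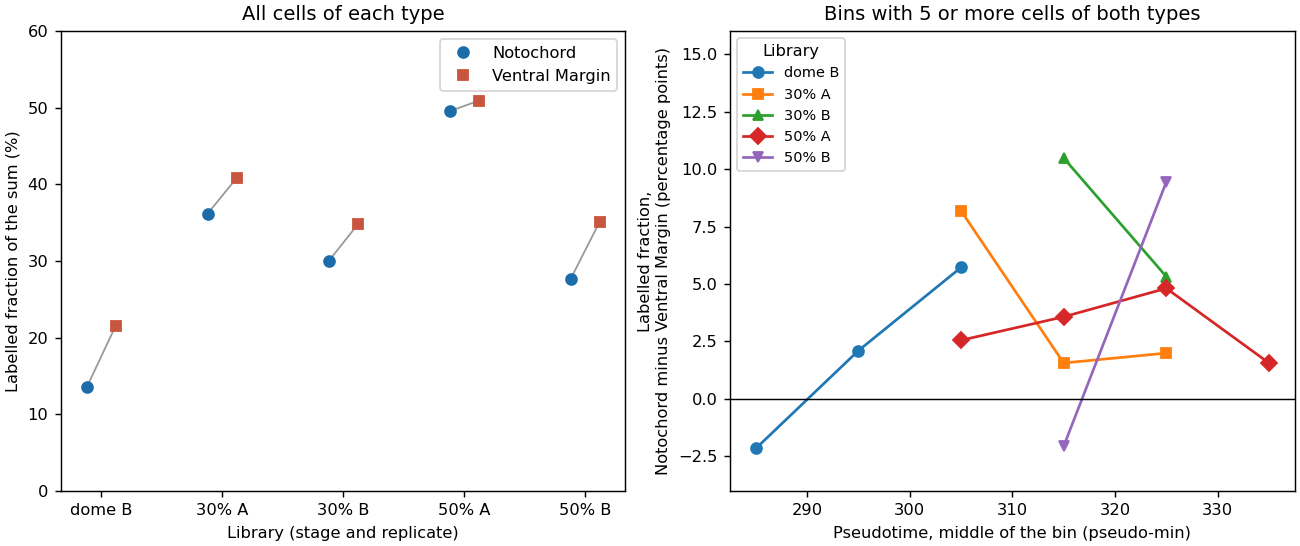
Left, labeled fraction (%) of the Notochord (blue circles) and Ventral Margin (red squares) sum in each library, joined by a line; right, the difference in percentage points (Notochord minus Ventral Margin) within bins of 10 pseudo-min that held 5 or more cells of both types, 1 line per library. All 5 pairs on the left rise from Notochord to Ventral Margin, while 12 of the 14 bins on the right lie above 0.

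Total expression was next split by the labeled fraction of each gene, with the study's limits of 5% and 65%. Of 855 tested genes below 5% labeled, which are maternal, 46 were higher in Notochord (5.4%) and 1 was higher in Ventral Margin (0.1%). Of 575 genes above 65% labeled, which are zygotic, 36 were higher in Notochord (6.3%) and 121 in Ventral Margin (21.0%). The dorsal differences were therefore both zygotic and maternal, and the ventral differences were mostly zygotic. The median log2 change was 0.10 for the maternal and -0.21 for the zygotic genes. With cells drawn so that both types held the same number in each pseudotime bin, the maternal genes gave 1 higher in Notochord and 7 higher in Ventral Margin of 497 tested, and the zygotic genes 65 and 25 of 387. Over all 2233 genes tested there, 88 were higher in Notochord and 47 in Ventral Margin. The medians of the maternal and zygotic genes became -0.07 and 0.14, so the sign of both medians changed at the same pseudotime.

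Single maternal genes differed less at the same pseudotime, and a few turned. *h1m*, the maternal linker histone, measured 1724, 1203, 1042, 582 and 1795 CPM in Notochord and 1009, 799, 653, 389 and 1021 CPM in Ventral Margin, with a labeled fraction of at most 2.38% in any sum. It was higher in Notochord in 5 of 5 libraries (0.60 ± 0.07, adjusted p = 2.77e-07), and by 0.01 in cells of the same pseudotime (adjusted p = 0.972). *acp5a*, an acid phosphatase gene, differed by 0.82 ± 0.09 (adjusted p = 3.17e-08), and by 0.19 at the same pseudotime (adjusted p = 0.526). Of 11 tested genes in the list of maternal-only genes, 7 were higher in Notochord and none in Ventral Margin, with a list median of 0.58. The study describes *cth1*, one of the 7 (0.97, edgeR adjusted p = 1.38e-06), as having both maternal and zygotic copies. At the same pseudotime, 1 of 9 tested genes of the list was higher in Notochord and 2 were higher in Ventral Margin, with a median of 0.01. The gene still higher in Notochord was *atp1b3b* (0.68, adjusted p = 0.0327), a sodium pump subunit gene. One of the 7, the cyclin gene *ccna1*, turned from 0.41 ± 0.10 (adjusted p = 0.0069) to -0.54 (adjusted p = 0.0146), and *nanog*, a maternal activator of the zygotic genome, from 0.42 ± 0.12 (adjusted p = 0.025) to -0.44 (adjusted p = 0.0293). The study names *cldng*, *cldnd*, *ccna1* and *cth1* among the genes of the maternal module that set the start of pseudotime. All are on the maternal-only list, so its values at the same pseudotime are not independent of the matching.

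Of the genes named for total expression that were also tested in cells of the same pseudotime, 26 kept their direction and call, 12 lost the call and 5 changed sign. Among those that kept their side, changes were 5.28 for *gsc*, 5.20 for *admp*, 5.08 for *chrd*, 3.31 for *noto* and 2.38 for *xbp1*, and -4.81 for *eve1*, -4.44 for *ved*, -3.07 for *bambia* and -1.05 for *apoeb*. Some that kept the call were smaller than over all cells. *apoc1* went from -2.65 to -1.57, *cdx4* from -3.35 to -2.05 and *mixl1* from -1.45 to -0.87. *tbx16* went from -1.08 to -0.48 and *ccnd1* from -0.85 to -0.42. *insb* was larger, at 3.83 against 2.84 over all cells. *tbxta* changed sign, from -0.95 ± 0.16 over all cells to 0.04, as did *sp5l*, *apela*, *nanog* and *ccna1*. *hes6* went from -1.33 ± 0.11 to -0.36 (adjusted p = 0.056) and *wnt11f2* from -1.04 ± 0.17 to -0.29 (adjusted p = 0.156), and *her7* was at -0.26 (adjusted p = 0.695). *foxa3* was not tested in the drawn cells because its counts were too low there.

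The regional genes were zygotic on the side where they were high. Over the libraries together, labeled fractions in Notochord were 96.4% for *gsc*, 95.7% for *noto*, 89.6% for *admp*, 89.5% for *nog1* and 86.2% for *chrd*. In Ventral Margin they were 93.2% for *vox*, 90.8% for *ved*, 90.6% for *bambia*, 89.7% for *bmp7a* and 88.8% for *eve1*. Between 305 and 8930 UMIs stood behind each of these values. The low side could not be compared in most of these genes, since *chrd* had 6 and *eve1* 8 UMIs in pairs of 3 or more UMIs there. In the unlabeled remainder, missed labels and maternal copies cannot be told apart.

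For genes with 10 or more UMIs behind the fraction in every sum, labeled and unlabeled expression were tested apart (limma on log2(CPM + 1), library as a block). Most regional genes could not enter, since the filter needs both types. Of 323 genes tested for labeled expression, 1 was higher in Notochord (0.31%) and 13 were higher in Ventral Margin (4.02%). The 1 gene was *cited4b* (1.23 ± 0.17, adjusted p = 0.000296). Ventral Margin was led by *apoeb* (-1.68 ± 0.14, adjusted p = 1.62e-06), *aif1l* (-1.59 ± 0.21, adjusted p = 0.000296), *tbx16* (-1.03 ± 0.15, adjusted p = 0.000573) and *hes6* (-1.32 ± 0.20, adjusted p = 0.000751). The fifth was *nop58*, a nucleolar protein gene of ribosome assembly (-0.86 ± 0.20, adjusted p = 0.0314), with labeled fractions of 9.25, 28.8, 16.5, 53.6 and 54.3% in Notochord against 19.8, 37.6, 38.1, 54.9 and 71.9% in Ventral Margin. *nop58* did not pass without dome B, 30% B or 50% B (adjusted p 0.107 to 0.169), with 3 UMIs behind the fraction (0.101), without the component filter (0.0911), in the 3 libraries with 50 or more cells of both types (0.53) or at the same pseudotime (-0.33, adjusted p = 0.316). The median over all tested genes was -0.28, so labeled RNA was lower in Notochord as a whole, as in the labeled fraction of the sums. At the same pseudotime, 21 genes were higher in Notochord and 4 in Ventral Margin of 187 tested, with a median of 0.28. *cited4b* (1.25, adjusted p = 0.000165), *apoeb* (-1.12, adjusted p = 0.000156), *aif1l* (-0.88, adjusted p = 0.0334) and *tbx16* (-0.43, adjusted p = 0.0334) passed in both. *hes6* did not pass at the same pseudotime (-0.08, adjusted p = 0.84). In the 3 libraries with 50 or more cells of both types, *cited4b* (1.29, adjusted p = 0.0679) and *tbx16* (-1.10, adjusted p = 0.205) did not pass, while *apoeb*, *aif1l* and *hes6* did.

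Of 463 genes tested for unlabeled expression, 5 were higher in Notochord (1.08%) and 0 in Ventral Margin, with 69 genes at an unadjusted p below 0.05. They were *h1m* (0.70 ± 0.06, adjusted p = 2.44e-05), the sterol carrier gene *npc2* (0.73 ± 0.09, adjusted p = 0.000597), *golga7* (0.56 ± 0.10, adjusted p = 0.0157), which encodes a Golgi protein, *nme2b.1* (0.31 ± 0.06, adjusted p = 0.0219), a nucleoside diphosphate kinase gene whose reads may be shared with close paralogs, and *gtf2a1* (0.32 ± 0.07, adjusted p = 0.0476), which encodes a general transcription factor. Each was higher in 5 of 5 libraries. At the same pseudotime *h1m* was at -0.16 (adjusted p = 0.634), *npc2* at -0.14 (adjusted p = 0.627) and *nme2b.1* at 0.11 (adjusted p = 0.573), while *golga7* and *gtf2a1* were not tested there. *golga7*, *nme2b.1* and *gtf2a1* also did not pass without dome B (adjusted p 0.119 to 0.235) or without 30% A (0.0644 to 0.0661), and *nme2b.1* and *gtf2a1* without 30% B (0.0677 and 0.182) or 50% A (0.051 and 0.0882). Among the genes lower in Notochord, none passed; those of lowest p were *hspd1* (-0.31 ± 0.09, adjusted p = 0.0984), *fth1a*, *hspb1*, *actb2* and *rps4x*.

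The labeled fraction of single genes was tested last, since it asks whether the same transcript is newer in 1 type. No gene of 476 passed (0%, limma, 65 at an unadjusted p below 0.05), and 68 genes were lower and 2 were higher in Notochord in every library. The median difference was -1.98 percentage points, and 26.7% of the genes were higher in Notochord. In cells of the same pseudotime this direction turned. The median there was 2.33 percentage points over 278 tested genes, with 71.9% higher in Notochord, and 0 passed. Over all cells, the gene of lowest p was *aif1l*, an actin-binding protein gene. Its labeled fraction was 2.79, 9.26, 5.41, 13.7 and 10.7% in Notochord and 14.1, 21.5, 15.5, 30.2 and 26.5% in Ventral Margin of dome B, 30% A, 30% B, 50% A and 50% B. The groups did not overlap, which held for no other of the 476 genes, and the difference was -13.2 ± 1.73 percentage points (SE, adjusted p = 0.0512). In all other cells of the same libraries the fraction was 4.50, 12.6, 10.6, 21.7 and 18.8%, between the Notochord and the Ventral Margin value in each library. The study reports zygotic copies of *aif1l* as restricted to muscle and blood cells. Those cells are pooled with all other cells here and were not compared with Ventral Margin. Total expression of *aif1l* was similar in size, at 1590 to 2196 CPM in Notochord and 1729 to 2240 CPM in Ventral Margin (-0.16 ± 0.06, adjusted p = 0.153; lower in Notochord in 4 of 5 libraries). At the same pseudotime the fraction differed by -7.49 ± 2.02 percentage points (limma, unadjusted p = 0.00568, adjusted p = 0.409).

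**Figure D3:**
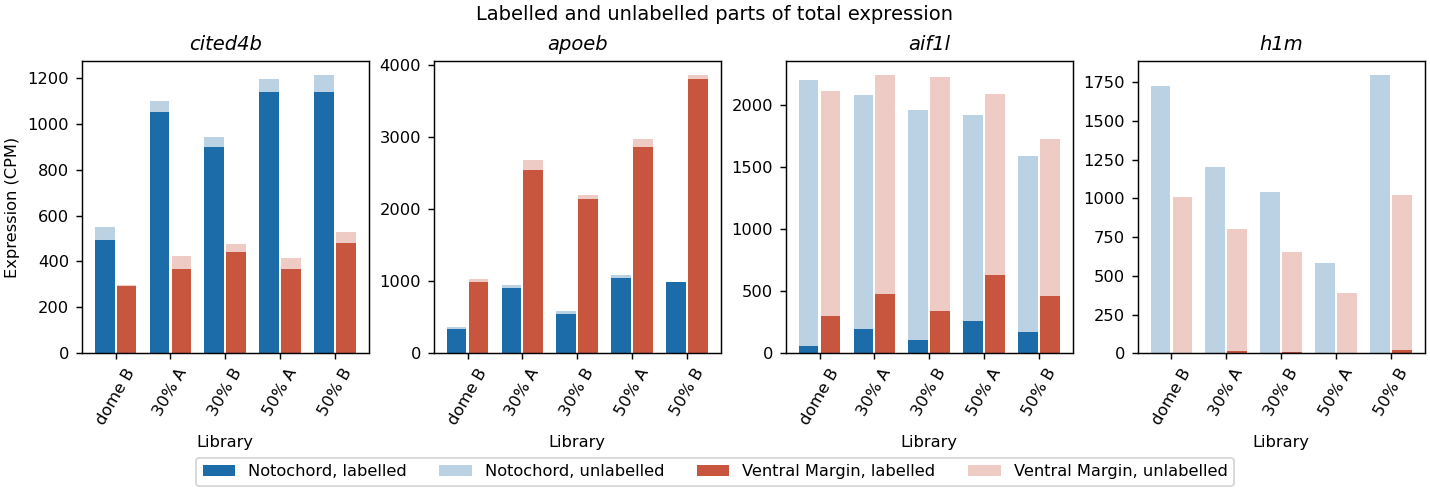
Labeled (dark) and unlabeled (light) parts of total expression (CPM) in each library for Notochord (blue) and Ventral Margin (red). The bars of *cited4b* and *apoeb* are nearly all labeled, those of *h1m* nearly all unlabeled, and the bars of *aif1l* are close in height, 1590 to 2240 CPM, with a larger labeled part in Ventral Margin in each library.

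Other genes of low p for the labeled fraction were *glulb*, a glutamine synthetase gene, with 13.8, 54.1, 54.4, 71.7 and 14.7% against 32.6, 67.7, 68.7, 85.6 and 56.7% (-20.5 ± 4.66, adjusted p = 0.246), the ribosomal protein gene *rps24* (-14.6 ± 3.17), and the translation factor genes *eif4ebp3l* (-4.35 ± 0.97) and *eif1axb* (-8.10 ± 1.93), all with an adjusted p of 0.246. Higher in Notochord were *lsm12b* (15.8 ± 4.05, adjusted p = 0.246) and *ddit4* (2.79 ± 1.69, adjusted p = 0.456). None of these passed, and only the direction recurred in 5 of 5 libraries.

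The difference between the types was compared between 30% and 50% epiboly in the 4 epiboly libraries. Of 4288 genes tested for this change of total expression, 12 passed (0.28%), of which 11 shifted toward Notochord and 1 toward Ventral Margin. *xbp1* measured 1268 and 1403 CPM at 30% epiboly and 1757 and 1968 CPM at 50% epiboly in Notochord, and 352 and 333 CPM and then 204 and 208 CPM in Ventral Margin (change of the difference 1.24 ± 0.17 log2, adjusted p = 6.92e-07). *tbxta* in Notochord went from 790 and 1261 CPM to 1579 and 1810 CPM, while Ventral Margin measured 2121 and 1823 CPM and then 1791 and 2069 CPM. The clock gene *her7* measured 44.8 and 154 CPM and then 110 and 189 CPM in Notochord, and 254 and 235 CPM and then 127 and 132 CPM in Ventral Margin (1.82 ± 0.34, adjusted p = 0.000745). The gene shifting toward Ventral Margin was the chemokine receptor gene *cxcr4b*, with 402 and 337 CPM and then 276 and 268 CPM in Notochord, and 285 and 373 CPM and then 400 and 794 CPM in Ventral Margin (-0.98 ± 0.22, adjusted p = 0.00912). This comparison rested on 2 libraries a stage: 2 genes passed with library totals in place of TMM, 0 with DESeq2 (17 at an unadjusted p below 0.05), 2 without 30% A, 0 without 50% A and 1 without 50% B. *xbp1* kept its adjusted p below 0.05 without each library but 50% A (0.3).

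**Figure D4:**
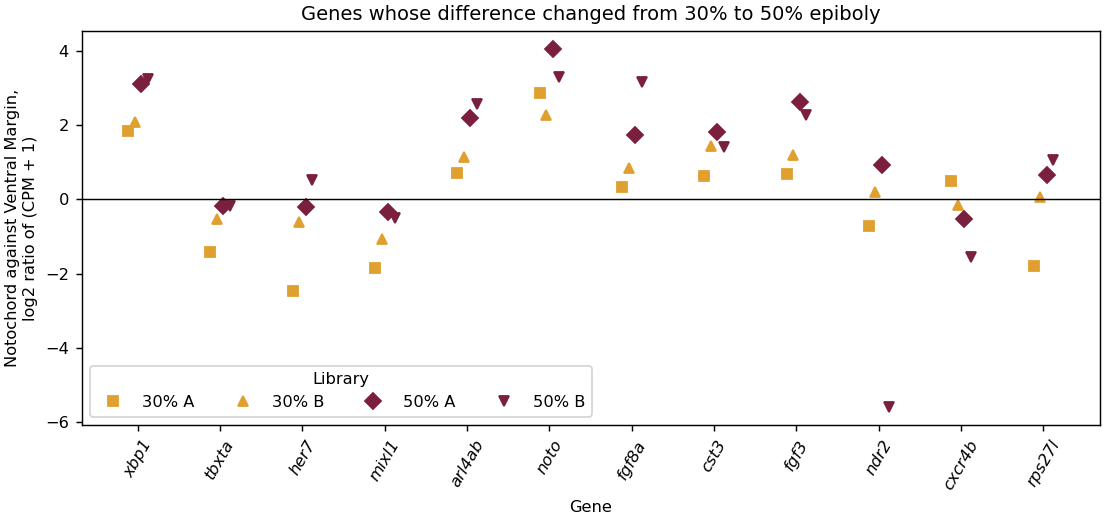
Log2 ratio of (CPM + 1) between Notochord and Ventral Margin in the 4 epiboly libraries for the 12 genes whose difference changed from 30% (yellow) to 50% epiboly (dark red). The *xbp1* points lie above 0 at both stages and higher at 50%, the *tbxta* points approach 0 at 50%, and the low *ndr2* point comes from 0 UMIs in Notochord of 50% epiboly replicate B.

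Within each type, regional genes varied with pseudotime. In Notochord of 30% epiboly replicate A, *gsc* measured 184, 245, 635, 1508 and 1425 CPM in the bins from 280 to 330 pseudo-min, and *tbxta* 149, 461, 818, 1247 and 2546 CPM. Both were higher in the later bins of that library. In Notochord of 50% epiboly replicate A, *gsc* was lower in the later bins, with 748, 858, 481 and 218 CPM from 300 to 340 pseudo-min, and *noto* measured 676, 1042, 757 and 509 CPM. In Ventral Margin of 50% epiboly replicate A, *ved* measured 2168, 2963, 3259 and 3391 CPM and *eve1* 843, 1020, 1093 and 1293 CPM from 310 to 350 pseudo-min. The bins held 15 to 243 cells each, and since pseudotime was built from total expression these trends are a description.

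**Figure D5:**
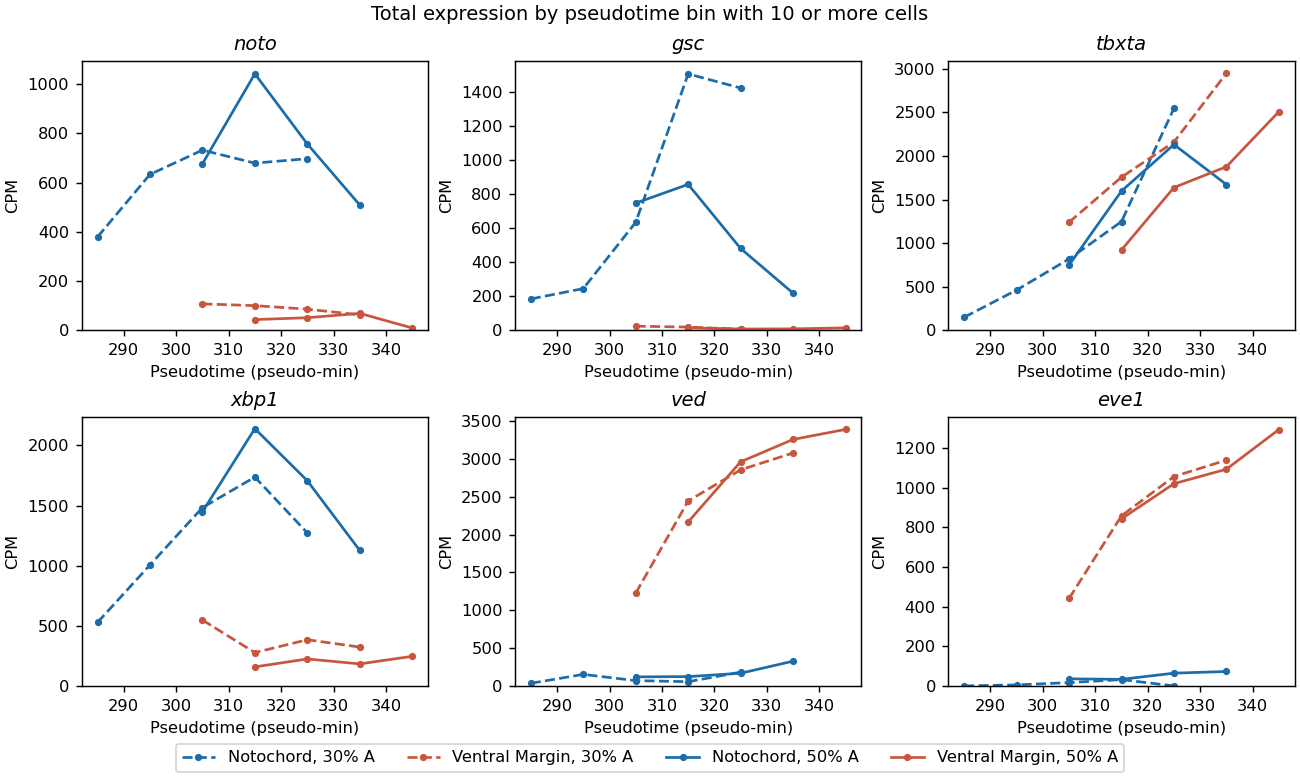
Total expression (CPM) of 6 genes by pseudotime bin (pseudo-min) with 10 or more cells, for Notochord (blue) and Ventral Margin (red) in 30% epiboly replicate A (dashed) and 50% epiboly replicate A (solid). *noto*, *gsc* and *xbp1* stay above the Ventral Margin lines and *ved* and *eve1* below them at each shared bin, whereas the *tbxta* lines of the types cross.

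Notochord cells differed in which of the organizer genes *gsc* and *noto* were detected by UMIs. In 50% epiboly replicate A, 62 of 192 Notochord cells held UMIs of both *gsc* and *noto* (32.3%, 95% Clopper-Pearson interval 25.7% to 39.4%), 76 of *noto* alone, 15 of *gsc* alone and 39 of neither. In 497 Ventral Margin cells of that library, at a median of 2468 UMIs against 2230 in Notochord, 2 held both (0.4%), 44 had *noto* (8.9%) and 11 had *gsc* (2.2%). The share of Ventral Margin cells with *noto* was higher in the other epiboly libraries, at 17.2% in 30% A, 35.2% in 30% B and 30.6% in 50% B, while *gsc* was found in 0 of 49 cells in 50% B (upper bound of the interval 7.3%) and in 1.1% and 2.1% of cells at 30% epiboly. Median UMIs of these Ventral Margin cells were 2234 in 30% A, 4499 in 30% B and 1901 in 50% B, so the libraries were not compared at equal depth. At dome, 81 of 160 Notochord cells had *gsc* (50.6%) and 65 had *noto* (40.6%), at a median of 3884 UMIs, against 5 and 8 of 59 Ventral Margin cells at a median of 3210 UMIs. *gsc* was thus found in more Notochord cells than *noto* at dome, and in fewer in the 4 epiboly libraries, where *noto* was found in 68.9% to 84.6% and *gsc* in 38.3% to 61.1% of them. Cells without a UMI may still express the gene, and the intervals cover counting error only.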

How the data were processed

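The deposited UMI counts per gene and cell (20920 genes, 4 injected RNAs left out) were made by the authors from Drop-seq reads. Per the methods of the study, Drop-seq tools with Bowtie2 ran on the earlier build Zv10 and GRAND-SLAM on GRCz11; the sources used here do not say which step wrote the deposited counts. The deposited labeled fraction (0 to 1) is the GRAND-SLAM estimate of the authors per gene and cell, and the deposited pseudotime is a score of the authors in pseudo-min. Cell type names are those deposited. The 5 unconverted libraries were not analysed here. The label of the dome library (replicate B) was followed although its cell names carry A. Doublets were not removed here.

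Counts were summed per library and type. The sources used here do not say whether libraries of a stage came from separate clutches, so that p-values measure the spread between these libraries. The types share the library, so that it was fitted as a block. edgeR 4.0.16 (TMM, filterByExpr, quasi-likelihood test, Benjamini-Hochberg) in R 4.3.3 tested total expression, with DESeq2 1.42.0 as an alternative, and limma 3.58.1 tested labeled and unlabeled CPM (total CPM times the labeled fraction or 1 minus it, pseudocount 1 CPM, a mean of 5 or more UMIs in the smallest sum) and the fraction per gene. The SE given with an edgeR change is the absolute log2 change over the square root of its quasi-likelihood F statistic, not a separate estimate. Fractions rested on pairs with 3 or more UMIs, in genes whose UMIs over the 8226 cells reached 50. The depth ranged from 63521 to 1445949 UMIs per sum, and intervals cover counting error only. Cells were drawn once for the comparison at the same pseudotime. Genes named are the 10 (total), 5 (labeled, unlabeled, fraction) or 3 (stage) of lowest adjusted p per direction, with members of 16 function lists, of which 179 of 186 genes were in the table. One gene that this rule names is not reported here. For total, labeled and unlabeled expression and the fraction, the direction also had to be the same in every library. Members and lists were chosen with earlier results of these data known. On simulated sums for total expression, 86.4% of genes changed by 1 log2 unit and 50.8% of those changed by 0.5 were called among 4172 genes. For the stage difference 25% and 4.7% were called among 4110. These sums were drawn from the count model and the spread that the edgeR fit itself assumes, so the shares hold only under that model.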

Additional observations from a re-analysis of the deposited data

Results flagged for a closer look

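The difference of *eve1* in 50% epiboly replicate B lay apart from those of the other 4 libraries, at -10.43 as a log2 ratio of (CPM + 1). It comes from 0 UMIs in Notochord of that library and depends on the added 1 CPM; the level of 3 counts there gives at least 29.2-fold lower. Of 26 sets of library values examined this way 1 stood apart, where chance gives about 1 in 20.

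The difference between Notochord and Ventral Margin changed from 30% to 50% epiboly in 12 genes (edgeR test of the change itself). The changes on the log2 scale were 1.24 for *xbp1*, 0.93 for *tbxta*, 1.82 for *her7*, 1.32 for *mixl1*, 1.45 for *arl4ab*, 1.27 for *noto*, 1.5 for *fgf8a*, 1.10 for *cst3*, 1.83 for *fgf3*, 1.51 for *ndr2*, -0.98 for *cxcr4b* and 2.06 for *rps27l*. In the libraries, *fgf8a* measured 142 and 118 and then 197 and 346 CPM in Notochord, beside 113 and 65.3 and then 58.8 and 37.8 CPM in Ventral Margin. *mixl1* measured 183 and 225 and then 199 and 126 CPM in Notochord, beside 659 and 473 and then 255 and 180 CPM in Ventral Margin. For *ndr2* the replicates went opposite ways. Notochord against Ventral Margin went from 97.6 against 163 to 168 against 88.5 CPM in replicate A. In replicate B it went from 53.3 against 46.6 to 0 against 47.2 CPM. *rps27l* rested on 11 and 7 UMIs in Notochord at 30% epiboly. Leaving out single libraries left 0 to 14 such genes.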

How the results depend on the processing

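The difference in the labeled fraction of the sums (-5.28 percentage points) kept its direction with 1 or more (-4.49) and with exactly 3 UMIs per pair (-4.47). Over shared genes of equal weight it kept its direction but was smaller, at -2.40. It was -6.25 to -4.58 percentage points when single libraries were left out. It reversed within pseudotime bins, to 4.48, and to 4.13 with 5 or more cells of both types. For total expression, 283 genes passed, against 112 with DESeq2, 135 in cells of the same pseudotime (61 of them among the 283) and 145 to 288 without single libraries (145 without 30% A, 169 without 30% B). Without the block for the pairing by library (no replicate block), 28 genes passed for total expression and 0 each for labeled expression, unlabeled expression and the stage difference. For the stage difference 12 passed, against 2 with library totals, 0 with DESeq2 and 0 to 14 without single libraries. For labeled expression 14 passed, against 7 with 3 UMIs behind the fraction, 5 without the filter on the component, 5 in the 3 libraries with 50 or more cells of both types, 25 at the same pseudotime and 5 to 23 without single libraries. For unlabeled expression 5 passed, against 3 with 3 or with 30 UMIs behind the fraction, 34 with pairs of 1 or more UMIs, 1 at the same pseudotime (higher in Ventral Margin, and none of the 5) and 2 to 24 without single libraries. For the labeled fraction per gene 0 passed, and 1 with 30 UMIs behind it. At the same pseudotime these changes took the other sign: *sp5l* 0.38, *tbxta* 0.04, *apela* 0.14, *nanog* -0.44 and *ccna1* -0.54 for total expression, and *h1m* -0.16, *npc2* -0.14 and *hspb1* 0.50 for unlabeled expression. The causes were not tested; fewer cells and genes enter at the same pseudotime. Every library had 20 or more cells of both types, so that limit changed nothing.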
